A study of Sus scrofa with 20 samples.

Results

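Aquaporins and the enzymes that make or use glycerol 3-phosphate were compared between backfat and liver of the Nanchukmacdon pig. The set was chosen by name and holds 10 genes, the aquaporins AQP1, AQP3, AQP4, AQP7, AQP8, AQP9 and AQP11, the glycerol kinase gene GK, and the glycerol 3-phosphate dehydrogenase genes GPD1 and GPD2. Of these, 8 had an identifier among the 31907 genes of the count table and 7 passed the filter on low counts, out of 16275 genes tested. AQP7 and GK could not be matched to an identifier and were not analysed here. Backfat and liver came from 5 boars, labelled wild type and normal, with an age of 22 months in the sample labels. Bulk tissue was sequenced by RNA-seq without any treatment, with 5 libraries for each tissue and a total of 10. Libraries are named by tissue and by the number in their column name, such as liver 67, which was taken as the boar number. Bisulfite libraries of the same tissues carry no position along the genome in the form used here and hold nothing on single genes.

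Triacylglycerol stored in fat is broken down to fatty acids and glycerol. The adipocyte has little means to phosphorylate glycerol, so glycerol leaves through membrane channels, travels in blood and is taken up by the liver, where glycerol kinase turns it into glycerol 3-phosphate for glucose or for new lipid. Channels that pass glycerol as well as water are called aquaglyceroporins, among them AQP3, AQP7 and AQP9, while AQP1, AQP4 and AQP8 mainly pass water. In mammals AQP7 is the classical channel of the adipocyte and AQP9 that of the hepatocyte. In the cytosol GPD1 interconverts dihydroxyacetone phosphate and glycerol 3-phosphate, and GPD2, on the inner mitochondrial membrane, oxidises glycerol 3-phosphate and passes the electrons to the respiratory chain.

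Each library had between 43820042 and 61772737 read pairs assigned to genes. The labelled tissues were checked against marker genes. All 6 hepatocyte markers were higher in liver, and their summed level was 20233 to 85175 CPM (read pairs scaled to library size, normalised by edgeR's TMM method) in liver and 168 to 528 CPM in backfat. All 6 adipocyte markers were higher in backfat, with 9353 to 12919 CPM against 10.98 to 15.7 CPM in liver. A pair of libraries stood apart. In backfat 69 the hepatocyte marker ALB reached 36.4 CPM, against 0.126 to 0.351 CPM in the other backfat libraries. Mitochondrial genes held 44.5% of all counts in liver 67 and 6.38% to 20.2% elsewhere, and red cell and skeletal muscle markers in liver 67 were the highest of the liver libraries at 1778 CPM and 159 CPM. Values without these libraries are given where a call changed or a fold moved by more than 1.5 times. Since bulk tissue was sequenced, fewer cells of a type and less RNA per cell cannot be told apart in any of the comparisons.

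Tissues were compared by the quasi-likelihood test of edgeR, and p-values were adjusted over all genes tested to a false discovery rate (FDR). A gene was a differentially expressed gene (DEG) where its FDR was no more than 0.05 and its log2 fold change was 2 or further from 0. Positive changes are towards backfat. Of the 7 genes tested, 4 were DEGs, AQP3 and AQP1 higher in backfat and AQP9 and AQP8 higher in liver. Of all genes tested 22.3% were DEGs, with 11.1% towards backfat and 11.2% towards liver. At the FDR threshold alone GPD2 passed as well, which made 5 of 7 genes against 55% of all genes. The median log2 fold change was 0.67 over the 7 genes and 0.00014 over all genes tested. When library size alone was used for scaling, this moved the median of all genes by 0.71 towards backfat and the liver share of DEGs from 50.1% to 31.8%, so directions below hold relative to the typical gene.

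**Figure D1:**
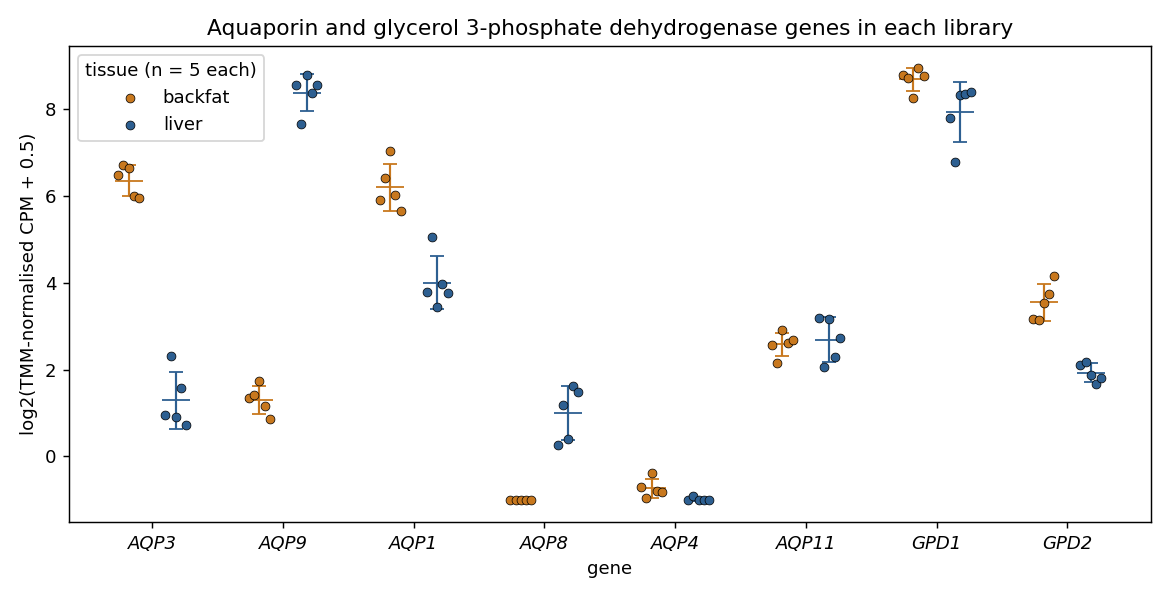
Level of each gene in every library, as log2 of TMM-normalised CPM plus 0.5, with backfat in orange and liver in blue. Each point is 1 library, and horizontal marks and bars give the mean and SD of 5 libraries. AQP3 and AQP9 change places between the tissues, and AQP8 sits at the floor of the scale in all 5 backfat libraries.

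The 4 DEGs lie on separate chromosomes. Positions are those of the RefSeq annotation of Sscrofa11.1, the build to which the reads were mapped. AQP9 (ENSSSCG00000004597) lies on the minus strand of chromosome 1 from 113798380 to 113848452, AQP8 (ENSSSCG00000031865) on the minus strand of chromosome 3 from 21493564 to 21503778, AQP3 (ENSSSCG00000040513) on the plus strand of chromosome 10 from 33045374 to 33050285, and AQP1 (ENSSSCG00000033190) on the minus strand of chromosome 18 from 42063482 to 42076741. AQP7, which has no value here, begins 48460 bp after the end of AQP3, on the same strand. GPD1 (ENSSSCG00000000214), on the plus strand of chromosome 5 from 16008179 to 16021676, lies 116065 bp beyond AQP6, the last of a row of 3 aquaporin genes with AQP2 and AQP5. It is the only one of the 8 genes with a value that shares its span with other annotated genes, LOC102163508 on the other strand and LOC110260660 on its own. Counts were not strand-specific, so reads from these genes cannot be told apart from those of GPD1 where they share exons. GPD2 (ENSSSCG00000015872) spans chromosome 15 from 63592723 to 63728636.

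The 250 bases before the annotated start of AQP9, AQP8 and AQP3 are shown because these DEGs had the widest differences between the tissues. Sequences are from the RefSeq genome of Sscrofa11.1 and run 5′ to 3′ along the gene, and capitals mark matches on either strand to any of 8 motifs. Core promoter motifs were TATAAA for the TATA box, GGGCGG for the GC box and CCAAT for the box of that name. The letters CACGTG were used for the E-box and AGGTCA for the element bound by nuclear receptors. Forkhead motifs were searched as TGTTTAC and as TGTTTGC, and the element bound by HNF1 was searched as GTTAAT. None of these is contained in another.
AQP9 (chr1:113848453-113848702, minus strand): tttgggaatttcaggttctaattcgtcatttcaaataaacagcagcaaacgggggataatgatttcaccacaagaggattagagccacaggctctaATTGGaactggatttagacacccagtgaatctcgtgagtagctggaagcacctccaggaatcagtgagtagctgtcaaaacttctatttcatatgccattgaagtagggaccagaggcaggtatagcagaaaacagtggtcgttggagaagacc
AQP8 (chr3:21503779-21504028, minus strand): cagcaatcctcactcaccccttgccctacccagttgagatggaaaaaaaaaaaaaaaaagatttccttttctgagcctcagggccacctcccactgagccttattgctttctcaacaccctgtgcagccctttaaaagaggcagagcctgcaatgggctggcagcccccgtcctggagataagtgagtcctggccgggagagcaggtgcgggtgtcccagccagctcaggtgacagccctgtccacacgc
AQP3 (chr10:33045124-33045373, plus strand): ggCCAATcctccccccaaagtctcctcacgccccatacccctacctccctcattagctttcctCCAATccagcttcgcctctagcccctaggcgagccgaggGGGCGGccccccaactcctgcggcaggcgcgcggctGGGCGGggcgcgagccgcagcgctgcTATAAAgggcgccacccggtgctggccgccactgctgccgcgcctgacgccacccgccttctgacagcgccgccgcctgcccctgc
The stretch of AQP3 held 2 GC boxes, a motif found in 45.9% of 19556 such stretches before protein-coding genes. No GC box was found before AQP9 or AQP8. GC content was 44.0% for AQP9 and 55.6% for AQP8, and 72.0% for AQP3, where the lower and upper quartiles of all stretches were 48.4% and 67.2%. AQP3 held a TATA box 86 bases before its start, a motif of 9.77% of stretches, and 2 CCAAT boxes, and AQP9 held 1 CCAAT box on the other strand. CCAAT was present in 31.9% of stretches. AQP8 held none of the motifs searched. No match to the other motifs was found before any of the 3 genes, where AGGTCA was present in 12.2% of all stretches, CACGTG in 6.39%, GTTAAT in 5.9%, TGTTTGC in 3.04% and TGTTTAC in 2.28%. A match is a string of letters and not a measured binding site.

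AQP9, the aquaglyceroporin of hepatocytes, was among the more abundant transcripts of the set in liver and was scarce in backfat. In liver it was expressed at 373 CPM in boar 65, 200.5 CPM in boar 67, 438 CPM in boar 69, 333 CPM in boar 71 and 373 CPM in boar 72. In backfat of the same boars, in the same order, it was at 2.04, 2.17, 2.81, 1.73 and 1.32 CPM, which rest on 77 to 181 read pairs per library. Every liver library thus lay far above every backfat library. AQP9 was 170-fold higher in liver, a log2 fold change of -7.41 with a standard error of 0.33 (edgeR FDR = 5.96e-09). Backfat 69 was the highest backfat library for both ALB and AQP9. The other 4 held 1.32 to 2.17 CPM of AQP9 and 0.126 to 0.351 CPM of ALB, and the part of liver RNA in the backfat level of AQP9 was not tested. Without backfat 69 the log2 fold change was -7.55.

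AQP3, an aquaglyceroporin known from kidney and skin that is also found in fat, went the other way. In backfat it was at 88.5 CPM in boar 65, 104 CPM in boar 67, 99.8 CPM in boar 69, 63.2 CPM in boar 71 and 60.99 CPM in boar 72. In liver the same boars gave 1.42, 4.43, 1.38, 2.50 and 1.14 CPM, so that the lowest backfat library lay well above the highest liver library. AQP3 was 38.4-fold higher in backfat, a log2 fold change of 5.26 with a standard error of 0.40 (edgeR FDR = 3.28e-07). The highest liver value was that of liver 67, and without this library the log2 fold change rose to 5.66. Of the markers of skin keratinocytes, where AQP3 is also expressed, the 3 with an identifier summed in backfat to 6.07 to 7.74 CPM and to 6.63 to 15.2 CPM in liver. Most of this sum was KRT10, and KRT1 was at 0 counts in 4 of 5 backfat libraries. The part of skin in the level of AQP3 was not tested.

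The AQP9 to AQP3 ratio within a library does not depend on scaling between libraries. Its log2 value was 7.44 ± 1.21 (SD, n = 5) in liver, from 5.50 to 8.34, and -5.37 ± 0.198 (SD, n = 5) in backfat, from -5.58 to -5.15. It was calculated after the levels of both genes were seen and was therefore not tested. The spread was wider in liver, where liver 67 had the lowest ratio.

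AQP1, a water channel of capillary endothelium, red cells and bile ducts, was higher in backfat. Backfat libraries of boars 65, 67, 69, 71 and 72 held 59.1, 84.4, 130.2, 64.6 and 49.5 CPM. Liver libraries in the same order held 13.2, 32.6, 10.3, 15.3 and 13.2 CPM. Backfat 69 and liver 67 were the highest of their tissues, and the tissues did not overlap. At a log2 fold change of 2.20 with a standard error of 0.35, AQP1 lay close to the fold-change threshold (FDR = 0.000176). Without backfat 69 it was 1.93, below the threshold, without liver 67 it was 2.53, and without both it was 2.31 (standard error 0.20, FDR = 4.23e-06).

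Markers of cells that carry AQP1 were listed beside it. Of 5 endothelial markers tested, 4 were DEGs higher in backfat, with a summed level of 776 to 1301 CPM in backfat and 145 to 211 CPM in liver. Backfat 69 was the highest backfat library for these markers as well as for AQP1, and also for the bile duct markers below. Backfat 65 was next for the endothelial markers, at 1203 CPM, but was among the lower backfat libraries for AQP1, at 59.1 CPM. In liver the endothelial sum was highest in liver 65, at 211 CPM, and not in liver 67, at 201 CPM, where AQP1 was highest. Red cell markers were not DEGs in any of 4 cases and summed to 108 to 488 CPM in backfat and 71.7 to 1778 CPM in liver, with the highest value in liver 67. Bile duct markers were higher in liver in 4 of 5 cases, at 49.4 to 113 CPM against 4.20 to 23.8 CPM in backfat, again with the highest liver value in liver 67. The part of these cells in the level of AQP1 was not tested.

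AQP8, a channel for water and ammonia of the liver, gut and pancreas, was detected in liver alone, and at a low level. Liver libraries held 28 to 84 read pairs, or 0.698 CPM in boar 65, 1.78 CPM in boar 67, 0.828 CPM in boar 69, 2.59 CPM in boar 71 and 2.28 CPM in boar 72. No read pair was counted in any of the 5 backfat libraries. A count of 0 is compatible with up to 3 counts over the 5 backfat libraries, and against that limit AQP8 was at least 179-fold higher in liver (FDR = 2.6e-05). The limit covers counting error only.

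AQP4, the water channel of astrocytes and of skeletal muscle, was close to the limit of detection in both tissues and had too few counts to be tested. Backfat libraries of boars 65, 67, 69, 71 and 72 held 10, 1, 16, 4 and 4 read pairs, and 1 read pair was found in liver, in liver 67. The ratio of the summed counts, 35 against 1, was 20.6 in favour of backfat after scaling, with an exact 95% interval from 3.46 to 837 that covers counting error only. When low counts were not filtered, a log2 fold change of 3.89 was obtained, with a standard error of 1.11 and an FDR of 0.0109 in edgeR. Skeletal muscle markers were also uneven between backfat libraries, at 399 CPM in backfat 65, 107 CPM in backfat 67, 150 CPM in backfat 69, 25.1 CPM in backfat 71 and 9.86 CPM in backfat 72. Their part in the counts of AQP4 was not tested.

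AQP11, a channel of intracellular membranes that has also been described in fat, was not called. Backfat held 5.55 ± 1.09 CPM (SD, n = 5), from 3.94 to 6.96 CPM, and liver 6.28 ± 2.29 CPM (SD, n = 5), from 3.67 to 8.68 CPM. The ranges overlapped over most of their length. A log2 fold change of -0.18 was obtained with a standard error of 0.28 (FDR = 0.608), and one of 0.47 (FDR = 0.221) with library size alone, so no direction can be given.

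GPD1 was abundant in both tissues. In backfat it was expressed at 441, 418, 303, 495 and 432 CPM in boars 65, 67, 69, 71 and 72, and in liver at 222, 109, 320, 325 and 335 CPM in the same order. The lowest backfat library, backfat 69, lay among the liver values, and liver 67 was the lowest of all. GPD1 passed neither threshold, with a log2 fold change of 0.67 and its standard error of 0.30 (FDR = 0.0727). Limma-voom gave an FDR of 0.0485 at a log2 fold change of 0.76, without backfat 69 and liver 67 the log2 fold change was 0.57 (FDR = 0.0227), and library size alone gave 1.39 (FDR = 0.00179). None of these reached the fold-change threshold.

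GPD2 was less abundant, and its tissues did not overlap. Backfat libraries of boars 65, 67, 69, 71 and 72 held 8.43, 8.31, 11.03, 13.0 and 17.2 CPM, and liver libraries 3.82, 4.02, 3.16, 2.65 and 3.01 CPM. GPD2 was 3.47-fold higher in backfat, a log2 fold change of 1.80 with a standard error of 0.25, and so passed the FDR threshold (FDR = 5.37e-05) but not the fold-change threshold. With library size alone it was 2.47 and called. Among the 7 genes tested the libraries of the tissues did not overlap for 5, namely AQP1, AQP3 and GPD2 higher in backfat and AQP8 and AQP9 higher in liver, against 42.6% of all genes tested, 22.9% with backfat above liver and 19.7% with liver above backfat.

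The balance of the dehydrogenases was compared as the log2 ratio of GPD1 to GPD2 counts within each library. Backfat libraries had a ratio of 5.21 ± 0.487 and liver libraries one of 6.20 ± 0.908 (SD, n = 5), so that GPD1 exceeded GPD2 in every library of both tissues. The difference was -0.99, which an exact permutation test did not separate from 0 (two-sided, p = 0.0635, where 5 libraries against 5 allow no p below 0.00794). Liver 67 had the lowest ratio in liver, 4.75 against 5.86 to 6.93 in the others. Without it the difference was -1.35 (two-sided exact permutation test over 5 and 4 libraries, p = 0.0159). The tissues then no longer overlapped, so this is the smallest p that 5 against 4 libraries allow in this test. Liver 67 was singled out after its ratio was seen, so this p cannot decide whether the balance differed. The result of the full test was kept in 12 of 13 alternatives. With libraries paired by boar number, p was 0.188 (exact sign-flip test, smallest possible 0.0625).

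**Figure D2:**
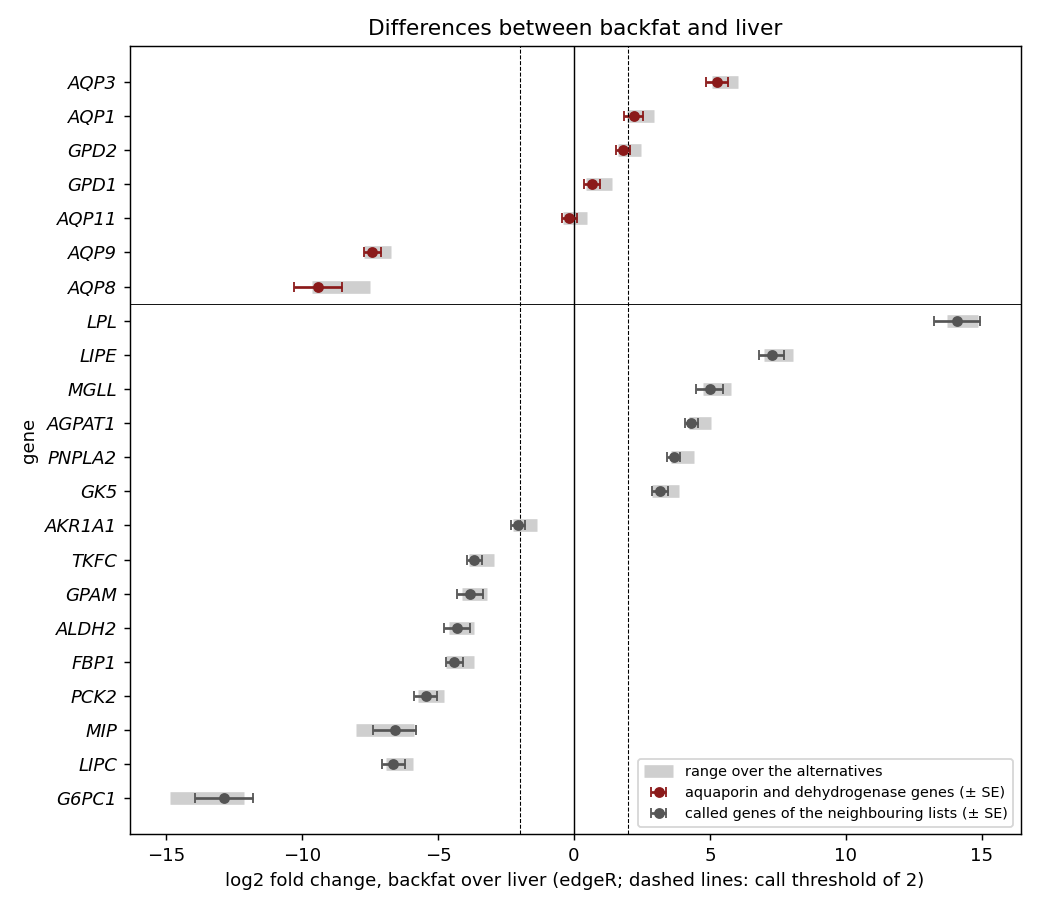
Log2 fold change of backfat over liver with its standard error, for the 7 genes tested (red, above the line) and for at most 5 DEGs from each neighbouring list (dark grey, below it). Pale bars give the range over the alternative settings, and dashed lines mark the threshold of 2. The bars of GPD2 and AQP1 cross the threshold, and those of AQP3, AQP8 and AQP9 do not. The fitted value of AQP8 depends on the prior count, since backfat had no counts.

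Levels were then compared between genes after division by the summed exon length of each gene, as CPM per kilobase. In backfat the order was GPD1 at 71.8 ± 12.1 CPM per kilobase, AQP3 at 45.7 ± 11.1 and AQP1 at 24.3 ± 10.03 (SD, n = 5), followed at a distance by AQP11 at 1.90 ± 0.373 and GPD2 at 1.83 ± 0.582, then AQP9 at 0.366 ± 0.100 and AQP4 at 0.0157 ± 0.0141. AQP11 and GPD2 could not be ordered, since AQP11 was the higher in 3 of 5 libraries. The ranges of GPD1 and AQP3 overlapped, as did those of AQP3 and AQP1, although AQP3 exceeded AQP1 in 5 of 5 libraries. That order depends on the summed exon lengths, 1822 bases for AQP3 and 3196 bases for AQP1. Before division by length, AQP1 was the higher in backfat 69, at 130.2 CPM against 99.8 CPM. The same held in backfat 71, at 64.6 CPM against 63.2 CPM, and AQP3 was the higher in the other backfat libraries. In liver AQP9 led at 62.4 ± 16.1 CPM per kilobase and exceeded GPD1, at 45.1 ± 16.7, in 5 of 5 libraries (SD, n = 5). AQP1 followed at 5.29 ± 2.79, then AQP11 at 2.15 ± 0.786, AQP3 at 1.19 ± 0.749, AQP8 at 0.568 ± 0.295 and GPD2 at 0.525 ± 0.0899. AQP8 and GPD2 could not be ordered, with AQP8 the higher in 2 of 5 libraries. AQP4 was last in liver, with its single read pair.

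The summed level of the 11 aquaporin genes with an identifier was 72.7 ± 19.6 CPM per kilobase in backfat and 72.4 ± 13.2 CPM per kilobase in liver (SD, n = 5), without AQP7. The make-up of this sum differed. In backfat AQP3 took 63.4% ± 5.65 and AQP1 32.7% ± 5.62 of it, and AQP9 took 0.504% ± 0.0401 (SD, n = 5). In liver AQP9 took 85.0% ± 8.28, AQP1 8.21% ± 6.54 and AQP3 1.87% ± 1.65 (SD, n = 5). The lowest share of AQP9 in liver, 70.6%, was that of liver 67, where AQP1 took 19.7%. AQP11 took 2.78% ± 0.889 in backfat and 2.91% ± 0.697 in liver (SD, n = 5).

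**Figure D3:**
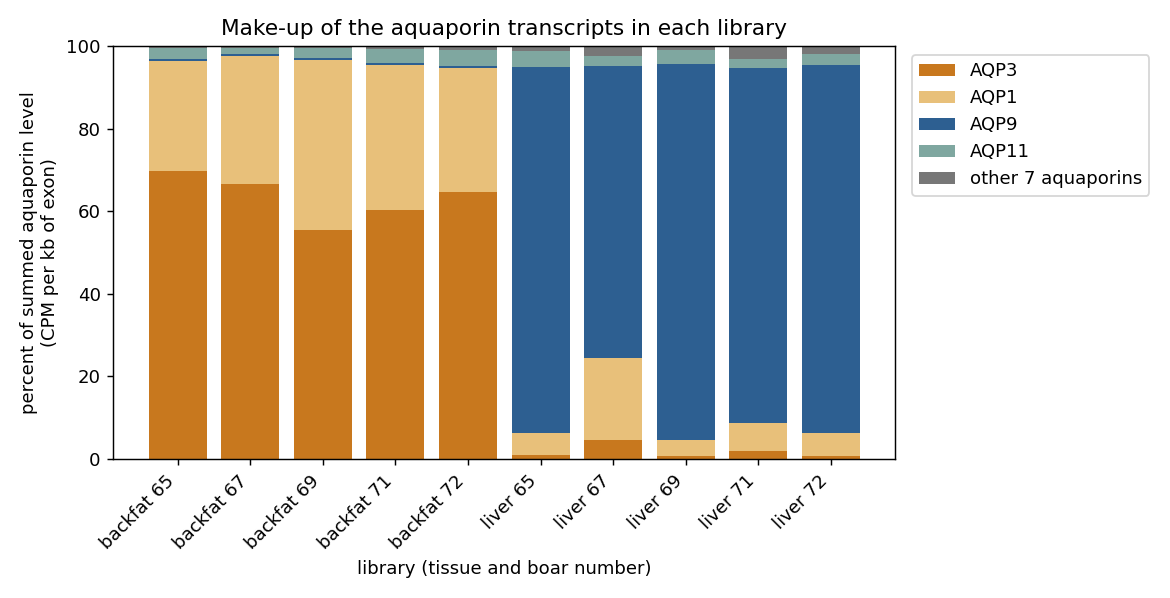
Percent of the summed aquaporin level, in CPM per kilobase of exon, taken by each gene in each of the 10 libraries. Orange tones, AQP3 and AQP1, fill most of the backfat bars, and AQP9 in blue takes 70.6% to 91.2% of the liver bars. AQP7 had no value and is not part of the sum.

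Within a tissue the genes did not spread alike. In backfat the coefficient of variation was lowest for GPD1 at 16.9% and AQP11 at 19.6%, and highest for AQP1 at 41.3% among genes above 1 CPM. In liver, again among genes above 1 CPM, it was lowest for GPD2 at 17.1% and AQP9 at 25.7%, and highest for AQP3 at 62.8% and AQP1 at 52.7%. Liver 67 was the extreme library for most of them. It was the highest liver library for AQP1, at 2.46 times the liver median, for AQP3, at 3.12 times, and for GPD2, at 1.27 times. It was the lowest for AQP9, at 0.538 times the median, for AQP11, at 0.596 times, and for GPD1, at 0.340 times. The hepatocyte markers were lowest in the same library. Whether this library or its RNA set these values was not tested, and the 4 DEGs kept their direction without it.

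**Figure D4:**
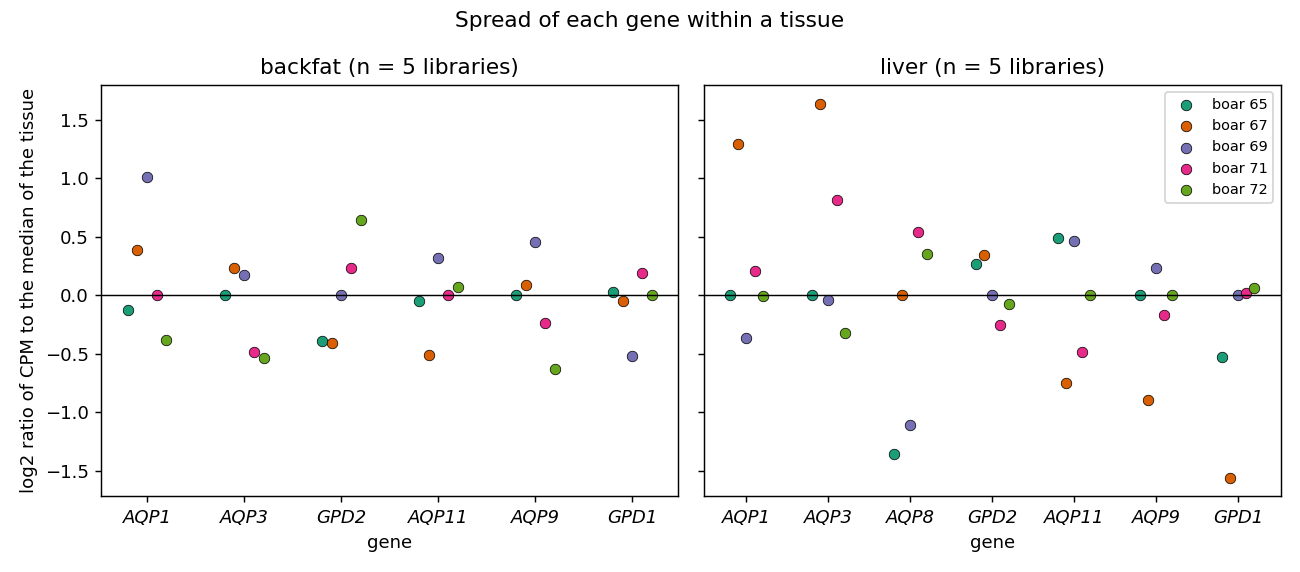
Level of each gene in each library as the log2 ratio of CPM to the median of its tissue, coloured by boar, with AQP8 shown for liver alone because it had no counts in backfat, and without AQP4. Boar 67 in liver lies above the median for AQP1, AQP3 and GPD2 and below it for AQP9, AQP11 and GPD1.

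Genes on either side of glycerol in the pathway were counted from lists of related genes. Of 28 such genes tested, 7 were DEGs towards backfat and 11 towards liver, which is read against 11.1% and 11.2% of all genes. Among lipases and their partner that release glycerol or its precursors, 4 of 6 were higher in backfat and 1 in liver, with a median log2 fold change of 4.33. LPL, which acts on lipoproteins in capillaries, was expressed at 3299 ± 594 CPM in backfat and 0.191 ± 0.163 CPM in liver (SD, n = 5), a log2 fold change of 14.09. LIPE and PNPLA2, the lipases of the fat droplet, had log2 fold changes of 7.27 and 3.66, and MGLL, which frees glycerol from monoacylglycerol, 4.99. LIPC, the hepatic lipase, was higher in liver at -6.65. ABHD5, the activator of PNPLA2, was at 103 ± 42.5 CPM in backfat and 64.5 ± 16.3 CPM in liver (SD, n = 5) and was not called (FDR = 0.059).

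Other enzymes of glycerol 3-phosphate gave 1 DEG among 3 tested. GK5, a relative of glycerol kinase, was at 25.1 ± 10.7 CPM in backfat and 2.79 ± 0.529 CPM in liver (SD, n = 5), and a log2 fold change of 3.16 with a standard error of 0.28 (edgeR FDR = 1.15e-06). GPD1L, a relative of GPD1, was not called, with a log2 fold change of -1.11 (FDR = 0.00305), nor was the phosphatase gene PGP at -0.05 (FDR = 0.894). GK2, the testis form of glycerol kinase, had no counts in either tissue.

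Of 6 acyltransferases tested, AGPAT1 was a DEG higher in backfat (log2 fold change 4.32) and GPAM, which acylates glycerol 3-phosphate at the mitochondrion, a DEG higher in liver (-3.82). The other 4 passed the FDR threshold below the fold-change threshold, GPAT3 at 0.96 and GPAT4 at 0.64 towards backfat, and AGPAT2 at -1.73 and AGPAT3 at -1.56 towards liver. Among 9 genes of glyceroneogenesis and gluconeogenesis 6 were higher in liver and 1 in backfat, with a median log2 fold change of -3.67. G6PC1 (-12.87) was furthest towards liver, at -14.79 without backfat 69 and -14.85 without backfat 69 and liver 67. The others called there were PCK2 (-5.45), FBP1 (-4.39) and TKFC, the kinase of dihydroxyacetone (-3.67). PCK1, which feeds both pathways, was a DEG at -2.03, although its libraries overlapped between tissues, and it was no longer called without backfat 71 (-1.86), backfat 72 (-1.80), liver 71 (-1.93) or liver 72 (-1.82), with no filter on low counts (-1.97) or with library size alone (-1.21). The gene higher in backfat was PC, pyruvate carboxylase, at 1495 ± 361 CPM in backfat and 312 ± 88.2 CPM in liver (SD, n = 5). Of 3 genes that reduce or oxidise glyceraldehyde and other aldehydes, ALDH2 (-4.30) and AKR1A1 (-2.06) were higher in liver, and AKR1B1 was not called at 1.13. AKR1A1 was no longer called without backfat 67 (-1.92), without liver 71 (-1.98) or with library size alone (-1.35).

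Of the other aquaporins 5 had an identifier and 1, MIP, was tested. MIP, known as the major channel of the lens fibre, was counted with 34 to 88 read pairs in each liver library and 4 read pairs over the 5 backfat libraries. Its levels were 1.45 ± 0.765 CPM in liver and 0.0137 ± 0.0220 CPM in backfat (SD, n = 5), giving a log2 fold change of -6.59 with a standard error of 0.78 (edgeR FDR = 1.5e-05). Of the 4 read pairs in backfat, 3 were in backfat 69, and the log2 fold change was -7.85 without this library and -8.01 without backfat 69 and liver 67. AQP2, AQP5, AQP6 and AQP10, the last of them also an aquaglyceroporin, stayed below 0.6 CPM in every library.

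The genes with the pattern most like AQP9 over the 10 libraries, by Pearson correlation of log2(CPM + 0.5), were the complement gene C5, the carboxylesterase gene CES3 and the transcription factor gene HNF4A, each with r of 0.999. A correlation above 0.99 was shared by 346 of 16268 genes, since the points fall into 2 tissues and the difference between these sets the value. For AQP3 they were SH3RF2 (0.999), UCP3 (0.997) and CCDC69 (0.997), and 67 genes were above 0.99.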

How the data were processed

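RNA-seq counts of backfat and liver from 5 boars were used. Per the file headers and the study's methods, the authors checked reads with FastQC, trimmed them with Trimmomatic, used HISAT2 for alignment to Sscrofa11.1 and featureCounts 2.0.1 for counting pairs over exons of Ensembl release 99, without strand, and deposited raw counts per gene and exon lengths. Replicate numbers of the labels could not be matched to columns, so tissue was taken from the column names and boars by number only. Same-numbered libraries were taken to be from the same boar, which the labels do not state. Their deviations from the tissue means correlated at 0.036 to 0.226. Backfat 67 correlated best with liver 65 and backfat 69 with liver 72, and the others with the liver library of their own number.

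Genes were filtered by filterByExpr, normalised by TMM and tested in R 4.3.3 with edgeR 4.0.16 (glmQLFit, glmQLFTest, tissue as the only term). The standard error of a log2 fold change is its size divided by the root of its F value. The alternatives were DESeq2 1.42.0, limma 3.58.1 (voom), other size factors and filters, the boar as a block, removal of the mitochondrial genes, other pseudocounts than 0.5 for ratios, and each library left out. The fit without both backfat 69 and liver 67 was added after the data were seen. The tests were also run on simulated counts, with a small share of genes changed equally often in both directions and no effect of boar. That run cannot check the scaling where many genes differ, or changes of genes with low counts. Permutation tests used SciPy 1.17.1 under Python 3.11.15.

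The genes, lists and marker genes were chosen with earlier results of these data known. All genes of the set are named. Of each list at most 5 called genes with the largest change are named, besides genes named because a count turned on them. Symbols were matched through the reference names, which hold 15029 of the genes counted. The planned ratios of AQP9 to AQP7 and of GK to GPD1 could not be made. A gene of the lists and a promoter sequence are not reported here. No 2 libraries agreed within sampling noise. P-values of the edgeR test weigh the difference between the tissues against the spread between the libraries of a tissue. With a single library per boar and tissue, differences between boars and between samples cannot be told apart.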

Additional observations from a re-analysis of the deposited data

Results flagged for a closer look

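In groups of 5 libraries a value was singled out when its gap to the nearest other library, divided by the range of the group, was above 0.71, Dixon's critical value. Of 15 combinations of gene and tissue, 2 were singled out. Chance singles out about 1 in 20 where values are normally distributed and groups are independent. These groups held CPM without a log transform and shared libraries, so the count of 2 cannot be read against that rate. AQP1 in liver 67 was at 32.6 CPM, and the next liver library was at 15.3 CPM. AQP4 in liver 67 was at 0.0270 CPM, which is 1 read pair, beside 0 in the other 4 liver libraries. A single read pair in 1 library always meets this criterion, so the value for AQP4 cannot be read against chance. The same library held the highest red cell, skeletal muscle and neutrophil markers of the liver libraries, at 1778, 159 and 20.6 CPM, and their part in these values was not tested.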

How the results depend on the processing

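Over 19 alternatives the log2 fold changes ranged from 5.06 to 6.04 for AQP3, from -7.70 to -6.71 for AQP9, from 1.93 to 2.95 for AQP1, from 0.44 to 1.39 for GPD1 and from 1.62 to 2.47 for GPD2, and over 18 alternatives from -9.62 to -7.51 for AQP8, which was not tested when 10 counts were required in every library. AQP3, AQP8 and AQP9 were called in all of these. AQP1 lost its call without backfat 69 (1.93), and GPD2 gained one with library size alone (2.47). AQP4, which had no test before, was called with no filter (3.89) and in DESeq2 (3.88, FDR = 0.0104), so that in each of these 3 settings 5 of the aquaporin and dehydrogenase genes were called. AQP11 changed sign with library size alone, from -0.18 to 0.47. Requiring 10 counts in every library lowered the number of DEGs over all genes from 3633 to 1852, with fewer genes tested. Leaving out each library in turn gave 3716 to 3964 DEGs over all genes, 3 or 4 among the aquaporin and dehydrogenase genes, 16 to 19 in the neighbouring lists, and a difference in the GPD1 to GPD2 ratio of -1.35 to -0.81. With the replicate block (boar number beside tissue) the same number of DEGs, 4, was found among the aquaporin and dehydrogenase genes, 18 in the lists and 3670 over all genes, and the GPD1 to GPD2 ratio gave p = 0.188 in the exact sign-flip test (smallest possible 0.0625). The block changed no call among the 7 genes tested or the 28 tested in the lists. AKR1A1 lost its call in 3 settings and PCK1 in 6. PGP, which was not called in any setting, changed sign with library size alone (0.62), with no filter (0.0013) and in 4 of the 10 fits that left out 1 library (-0.23 to 0.11 over all 10). For AQP4 and AQP8 the low counts limit the precision.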
